A study of Rattus norvegicus with 12 samples.

Results

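The genes described here are 7 markers of the cell division cycle, taken from the 32754 gene rows of each count file by their Ensembl rat identifiers: Mki67 (ENSRNOG00000028137), Top2a (ENSRNOG00000053047), Cdk1 (ENSRNOG00000000632), Ccna2 (ENSRNOG00000015423), Pcna (ENSRNOG00000021264), Cdc20 (ENSRNOG00000028415) and Plk1 (ENSRNOG00000018815). All 7 had counts in every library and entered every test. They were measured by RNA sequencing of CD4+ T cells reactive to β-synuclein, a neuronal protein, in LEW/Crl rats, sorted 3 days after the cells had been given intravenously. The 12 libraries form 4 groups of 3: cells labelled wt from blood (called wild-type), and cells labelled b-syn TCR Tg (called transgenic) from blood, from the meninges of the brain, which are the membranes that cover it, and from the brain parenchyma, which is the nervous tissue itself. Neither the age of the animals nor the construct of the T cell receptor transgene is stated in the labels, and the labels do not tell whether the libraries of a group came from different animals, so the spread between them may be technical. Titles of the parenchyma samples end in the digit 4 and those of the other tissues carry a 3; if that digit is a day, tissue and day cannot be told apart. A TruSeq kit and a low-input NEBNext kit are both named for every sample, so a difference of kit between groups cannot be told apart from the group either.

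Dividing cells build their cell cycle machinery in waves. Genes of DNA synthesis are switched on as cells enter S phase and genes of mitosis later, in G2, while resting lymphocytes transcribe little of either. Pcna encodes the sliding clamp that holds DNA polymerase on its template. Top2a encodes topoisomerase II alpha, which untangles replicated DNA, and Ccna2 encodes cyclin A2, the partner of the cyclin-dependent kinases in S phase and G2. Cdk1 is the kinase that drives entry into mitosis, Plk1 is a second mitotic kinase, and Cdc20 activates the ubiquitin ligase that starts the separation of chromosomes. Mki67 encodes Ki-67, a protein of the surface of mitotic chromosomes that serves as the common histological marker of cycling cells. In T cells, too, these genes mark cells in the division cycle. In RNA from a sorted population, fewer cycling cells and less of these transcripts in each cycling cell cannot be told apart.

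In human and mouse cells many genes of G2 and mitosis share a promoter layout: CCAAT boxes bound by NF-Y and a cell cycle genes homology region (CHR), a short element bound by the MuvB core of the DREAM complex, which keeps such genes silent in resting cells. Genes of S phase more often carry E2F sites. RefSeq promoters (assembly GRCr8) were found by symbol for 6 of the 7 genes, and the 250 bases before the start of transcription were searched on both strands. The letters sought were CCAAT for the box, either TTTGAA or TTTAAA for the CHR, and for E2F any of TTTGGCG or TTTCGCG or TTTCCCG or TTTGCCG. The box was found in 6 of the 6 and a CHR form in 5. At least 2 CCAAT boxes together with a CHR form were found in 4 (Mki67, Top2a, Cdk1 and Cdc20). Over all 33469 promoters of the table, windows of the same length held CCAAT in 34.0%, a CHR form in 25.4%, an E2F form in 5.58%, and at least 2 CCAAT boxes with a CHR form in 2.32%. Promoters are shown for Top2a, Cdk1 and Cdc20, which carry that layout, and for Pcna, the S-phase gene, in which 1 CCAAT box and no CHR or E2F form of this spelling was found. Capitals mark the matches, a CCAAT box on the opposite strand reading ATTGG and TTTGAA reading TTCAAA. The windows are chr10:84473094-84473343 on the minus strand for Top2a, chr20:19265043-19265292 on the plus strand for Cdk1, chr5:137255800-137256049 on the minus strand for Cdc20 and chr3:139955821-139956070 on the minus strand for Pcna, each printed 5′ to 3′ in the direction of the gene.
Top2a: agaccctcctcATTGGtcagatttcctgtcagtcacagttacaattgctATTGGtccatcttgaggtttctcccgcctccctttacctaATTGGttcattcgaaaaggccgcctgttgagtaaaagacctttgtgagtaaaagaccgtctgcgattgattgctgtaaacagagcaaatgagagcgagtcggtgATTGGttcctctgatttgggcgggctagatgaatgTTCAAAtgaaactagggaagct
Cdk1: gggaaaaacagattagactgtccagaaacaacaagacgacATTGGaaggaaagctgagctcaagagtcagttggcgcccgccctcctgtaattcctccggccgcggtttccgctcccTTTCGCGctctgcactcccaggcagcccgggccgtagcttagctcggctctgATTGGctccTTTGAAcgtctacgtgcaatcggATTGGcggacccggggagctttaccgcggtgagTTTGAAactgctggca
Cdc20: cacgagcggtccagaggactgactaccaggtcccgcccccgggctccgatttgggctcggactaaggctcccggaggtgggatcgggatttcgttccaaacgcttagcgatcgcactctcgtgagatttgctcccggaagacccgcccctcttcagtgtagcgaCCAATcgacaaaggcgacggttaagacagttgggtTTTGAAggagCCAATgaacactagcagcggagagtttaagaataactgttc
Pcna: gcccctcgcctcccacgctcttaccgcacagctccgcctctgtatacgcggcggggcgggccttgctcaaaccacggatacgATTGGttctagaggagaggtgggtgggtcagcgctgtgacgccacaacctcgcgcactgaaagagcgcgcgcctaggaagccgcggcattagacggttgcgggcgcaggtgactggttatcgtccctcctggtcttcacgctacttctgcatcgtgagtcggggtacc

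The Top2a window held 4 CCAAT boxes and 1 CHR form, the latter ending 17 bases before the start. Cdk1 held 3 CCAAT boxes, 2 CHR forms and 1 E2F form, and Cdc20 held 2 CCAAT boxes and 1 CHR form. The windows that are not shown held 4 CCAAT boxes and 2 CHR forms for Mki67, where 1 box shares a base with 1 CHR form, and 1 CCAAT box and 2 CHR forms for Plk1. These are matches of letters in a reference promoter, and binding was not measured.

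Levels of all 7 genes followed the same order of group means: highest in transgenic blood, then meninges, then parenchyma, and lowest in wild-type blood. Levels are counts divided by the file total and scaled to 1000000 (CPM), and levels are not compared between genes, since CPM does not correct for transcript length. Together the 7 genes took 0.266% ± 0.0689 of all counts in transgenic blood, 0.165% ± 0.0538 in the meninges, 0.0992% ± 0.0421 in the parenchyma and 0.0650% ± 0.0264 in wild-type blood (SD, n = 3). Some neighbours in this order were not separated by their libraries. Meninges and parenchyma overlapped for all 7 genes, and so did parenchyma and wild-type blood, a pair that differs in both tissue and genotype and was not tested. Transgenic blood and meninges overlapped for Mki67, Cdk1 and Pcna and did not overlap for the other 4. Library totals ran from 16643832 to 38601400 counts, and the 7 genes had between 312 and 23984 counts in a library. Counting error was therefore at most 5.66% of a value, while the coefficient of variation between libraries of a group ran from 16.6% to 74.5%, so the number of libraries and not their depth limits the precision.

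**Figure D1:**
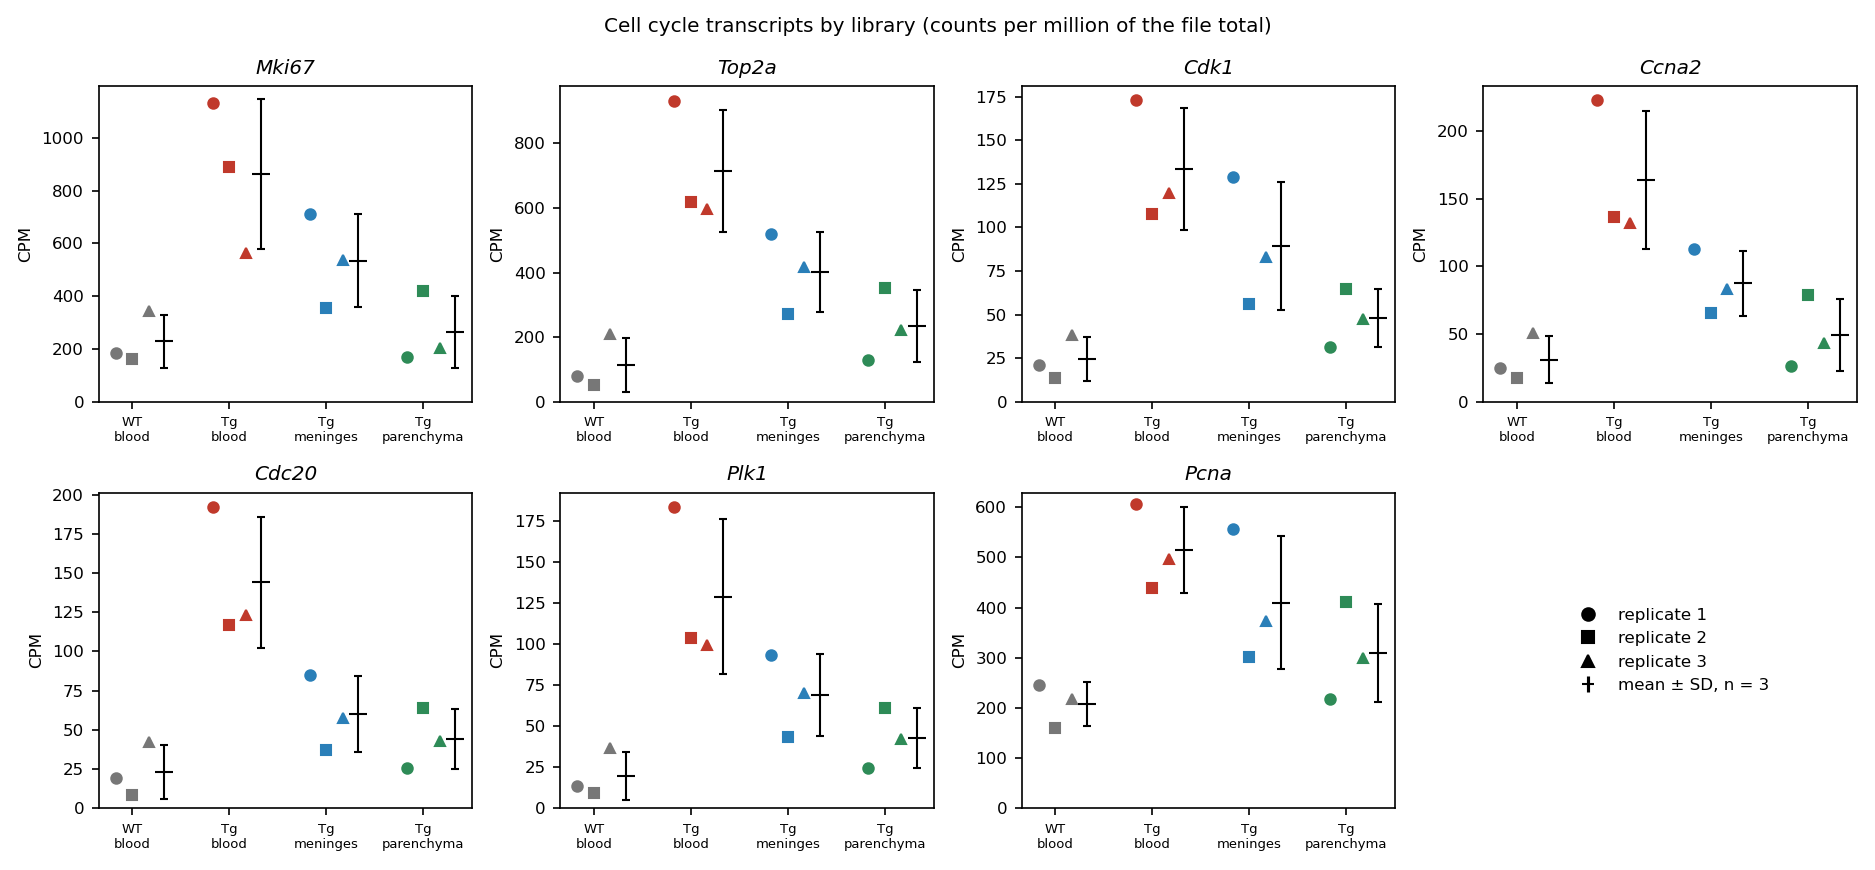
CPM of each gene (vertical axis, a scale of its own in each panel, starting at 0) in the 12 libraries, by group; WT is wild-type, Tg is transgenic, marker shapes give the replicate number, and bars give the mean ± SD of 3 libraries. Transgenic blood has the highest mean in every panel, for example 861 CPM for Mki67 against 229 CPM in wild-type blood.

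Libraries labelled transgenic and wild-type were set against each other in blood, the source that both kinds of cell have in common. All 7 genes were higher in the transgenic cells, from 2.46-fold for Pcna to 6.59-fold for Plk1, and each passed the threshold of an adjusted p under 0.05 in edgeR's quasi-likelihood test. Among the 11618 genes tested, 13.1% passed in that direction. The libraries of the genotypes did not overlap for any of the 7, as was the case, in that direction, for 23.6% of the tested genes. The median log2 fold change was 2.46 over the 7 genes and -0.0053 over all genes tested, for which the 10th percentile was -0.76 and the 90th was 0.70.

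By role, the S-phase gene Pcna had 247, 159 and 218 CPM in wild-type replicates 1, 2 and 3 and 607, 439 and 497 CPM in transgenic replicates 1, 2 and 3 (the order kept below). Its log2 fold change was 1.30 (SE 0.19, edgeR adjusted p = 0.00131), the smallest of the 7, and its wild-type libraries were the closest to each other. Top2a had 80.5, 52.7 and 209 CPM in wild-type blood and 932, 618 and 595 CPM in transgenic blood. The third wild-type library thus stood above the other wild-type libraries and still below every transgenic one, and the log2 fold change was 2.66 (SE 0.44, edgeR adjusted p = 0.00212). Ccna2 had 24.6, 17.7 and 50.8 CPM in wild-type and 223, 137 and 132 CPM in transgenic blood. Its log2 fold change was 2.41 (SE 0.36, edgeR adjusted p = 0.00131), again with replicate 3 the highest wild-type library and replicate 1 the highest transgenic library.

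The genes of mitosis moved the same way. The kinase gene Cdk1 had 21.2, 13.7 and 38.5 CPM in wild-type and 173, 107 and 120.1 CPM in transgenic blood, a log2 fold change of 2.46 (SE 0.34, edgeR adjusted p = 0.000899). Plk1 had 13.6, 9.13 and 36.5 CPM in wild-type and 183, 103 and 99.6 CPM in transgenic blood (log2 fold change 2.72, SE 0.46, edgeR adjusted p = 0.00249). Cdc20 had 19.2, 8.56 and 42.3 CPM in wild-type and 192, 117 and 123 CPM in transgenic blood (log2 fold change 2.64, SE 0.47, edgeR adjusted p = 0.00323). For each of these mitotic genes wild-type replicate 3 was the highest of its group, and the lowest transgenic library was above it. The marker Mki67 had 183, 160.5 and 345 CPM in wild-type and 1129.7, 890.0 and 564 CPM in transgenic blood (log2 fold change 1.91, SE 0.31, edgeR adjusted p = 0.00205). Its genotypes came nearest to each other at wild-type replicate 3 and transgenic replicate 3.

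Replicate 3 of wild-type blood held 0.0939% of its counts in the 7 genes, against 0.0589% and 0.0421% in replicates 1 and 2. Without it the log2 fold change was 3.38 for Top2a (10.4-fold), 3.33 for Cdc20 (10.1-fold) and 3.46 for Plk1, against 2.66, 2.64 and 2.72 with all libraries. It was the highest wild-type library for these genes, so leaving it out widens the difference by construction. Without wild-type replicate 2, the lowest of its group for all 7 genes, the values were 2.32, 2.24 and 2.38. All 7 calls held when any 1 blood library was left out and with every other setting tried. The wild-type libraries were also deeper than those of transgenic blood, at 29959282 to 38601400 counts against 16848739 to 21229957. The part of depth in the result was not tested.

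Transgenic cells of the 3 tissues were compared next, in a joint fit of 9 libraries. The parenchyma had less of these transcripts than blood: 6 of the 7 genes fell, by 2.82-fold to 3.35-fold, and Pcna, at 1.69-fold lower, missed the threshold (edgeR adjusted p = 0.0609). In this direction 16.4% of the 11809 genes tested passed. The call of Pcna depended on the method. It passed in 5 of 15 alternatives, among them DESeq2 (DESeq2 adjusted p = 0.0193), and missed with limma-voom (limma-voom adjusted p = 0.0551). The parenchyma and blood libraries did not overlap for any of the 7 genes, as for 21.8% of tested genes in that direction. The median log2 fold change was -1.63 over the 7 genes and 0.023 over all genes tested, with 10% of all genes below -0.80. Both the meningeal and the parenchymal comparison with blood use the same 3 blood libraries.

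Group means of the meninges lay between those of transgenic blood and parenchyma for all 7 genes. None of the 7 genes (0) passed the threshold against blood, where 1.75% of tested genes passed as lower, although all 7 estimates were below 0. Unadjusted edgeR p-values were under 0.05 for 2 of them, Ccna2 and Cdc20, and the share of all genes under that limit was not counted. DESeq2 called 1 of the 7, Cdc20, and 465 of its 12393 tested genes as lower. Limma-voom called 0 of the 7, against 215 of 11809 genes as lower. The libraries did not overlap for 4 of the 7 (Top2a, Ccna2, Cdc20 and Plk1), against 18.6% of tested genes in that direction. The median log2 fold change was -0.78, against 0.0011 over all genes, with 10% of all genes below -0.49.

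Parenchyma and meninges were compared directly as well. Again 0 of the 7 genes passed in edgeR, against 7.48% of tested genes called lower in the parenchyma, and no gene of the 7 had separate libraries, against 13.4% of tested genes. The balance of all calls depended on the scaling, with 945 genes higher and 883 lower as reported and 1159 higher and 702 lower when the file total alone set the library size. Unadjusted edgeR p-values were under 0.05 for 4 of the 7, and the share of all genes under that limit was not counted. DESeq2 called 1 of the 7, Cdk1, and 1159 of its 13540 tested genes as lower. Limma-voom called 0 of the 7, against 857 of 11809 genes as lower. The median log2 fold change was -0.85 against 0.015 over all genes, with 10% of all genes below -0.57. Parenchyma replicate 2 was the highest of its group for all 7 genes, so leaving it out widens the difference by construction. Without it 3 genes were called lower than in the meninges, namely Mki67 (log2 fold change -1.59, edgeR adjusted p = 0.0163), Top2a (-1.26, 0.0377) and Ccna2 (-1.39, 0.0255). Among the 12099 genes tested in that fit, 904 were called lower. Pcna then also passed against blood (log2 fold change -1.01).

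**Figure D2:**
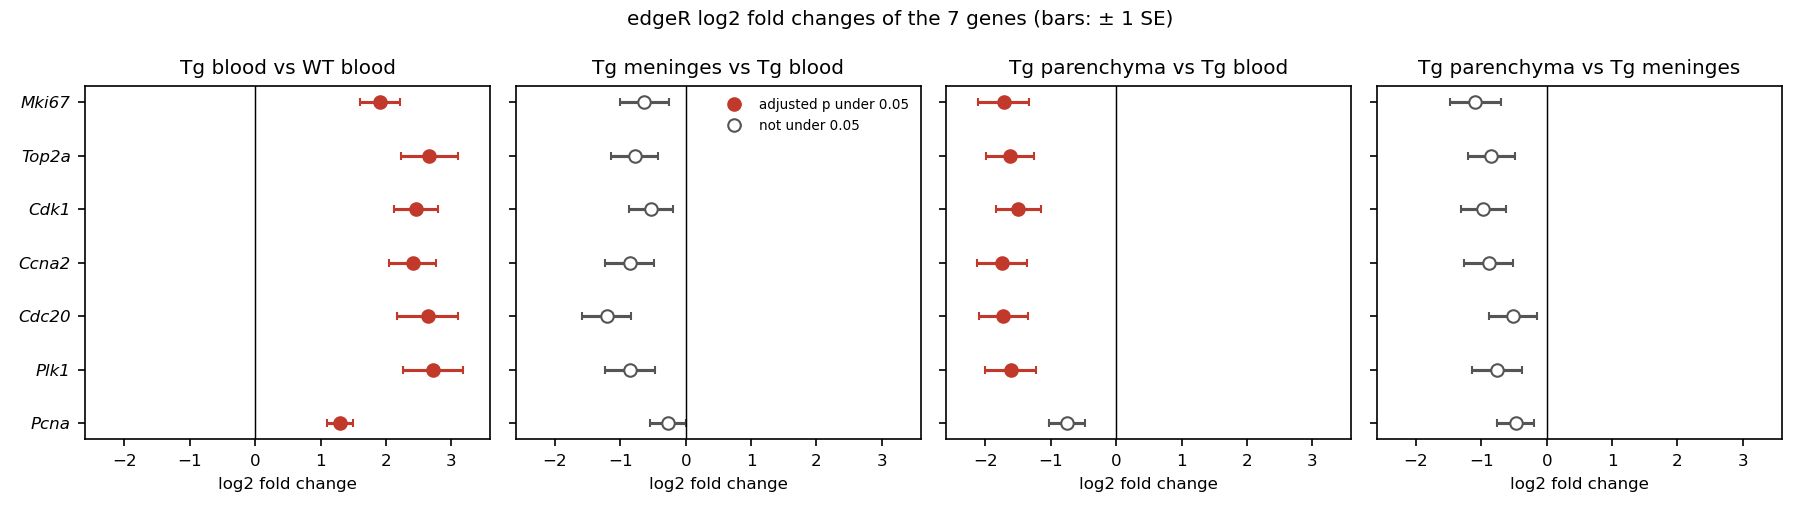
edgeR log2 fold changes (horizontal axis) of the 7 genes in the 4 comparisons; points are estimates, bars are ± 1 SE, and filled red points have an adjusted p under 0.05 over all genes tested. All 7 are filled to the right of 0 for genotype and 6 to the left of 0 for parenchyma against blood, while meninges against blood and parenchyma against meninges have none filled.

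Library values show how the tissues lie. Mki67 had 710.4, 357 and 536 CPM in meningeal replicates 1, 2 and 3 and 171, 420.0 and 202 CPM in parenchymal replicates 1, 2 and 3. Its log2 fold change was -0.63 in the meninges against blood (SE 0.38, edgeR adjusted p = 0.369), -1.72 in the parenchyma against blood (SE 0.39, edgeR adjusted p = 0.00790) and -1.09 between parenchyma and meninges (SE 0.38, edgeR adjusted p = 0.0849). The highest meningeal library was above the lowest blood library, at 564 CPM, and the highest parenchymal library above the lowest meningeal one. Top2a had 518, 271 and 416 CPM in the meninges and 129, 352 and 221 CPM in the parenchyma. Against blood, the log2 fold change of Top2a was -0.78 in the meninges (SE 0.36, edgeR adjusted p = 0.244) and -1.63 in the parenchyma (SE 0.37, edgeR adjusted p = 0.00777). All its meningeal and parenchymal libraries lay below the blood range of 595 to 932 CPM.

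The cyclin gene Ccna2 had 113, 65.9 and 83.2 CPM in the meninges and 26.4, 78.8 and 43.5 CPM in the parenchyma. Against blood, the log2 fold changes were -0.86 (SE 0.38, edgeR adjusted p = 0.223) and -1.75 (SE 0.39, edgeR adjusted p = 0.00703), and no meningeal library reached the blood range. Cdk1 had 129, 56.4 and 83.1 CPM in the meninges and 31.5, 64.7 and 47.7 CPM in the parenchyma. Here meningeal replicate 1 lay inside the blood range, and the log2 fold changes were -0.53 (SE 0.34, edgeR adjusted p = 0.406) and -1.50 (SE 0.35, edgeR adjusted p = 0.00894).

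For Cdc20, the activator of chromosome separation, the meningeal estimate was the farthest from blood among the 7 genes. It had 85.2, 37.3 and 57.9 CPM in the meninges and 25.7, 64.1 and 42.8 CPM in the parenchyma. Against blood, the log2 fold change was -1.21 in the meninges (SE 0.38, edgeR adjusted p = 0.0945), -1.72 in the parenchyma (SE 0.38, edgeR adjusted p = 0.00715) and -0.52 between parenchyma and meninges (SE 0.37, edgeR adjusted p = 0.390). Its meningeal and parenchymal libraries overlapped, and all of them were below every blood library. Over 15 other settings, which include DESeq2 and limma-voom, the adjusted p of the meningeal comparison ran from 0.00830 to 0.306. Plk1 had 93.2, 43.4 and 70.3 CPM in the meninges and 24.5, 61.0 and 42.2 CPM in the parenchyma, with log2 fold changes against blood of -0.85 (SE 0.38, edgeR adjusted p = 0.232) and -1.62 (SE 0.39, edgeR adjusted p = 0.0106). Pcna had 556, 300.5 and 372 CPM in the meninges and 217, 410.4 and 300.3 CPM in the parenchyma. Against blood, the log2 fold changes were -0.28 (SE 0.28, edgeR adjusted p = 0.617) and -0.75 (SE 0.28, edgeR adjusted p = 0.0609), and it had the narrowest range over the transgenic tissues.

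Within a group the 7 genes mostly had their highest and lowest values in the same libraries. In transgenic blood all 7 were highest in replicate 1, while 3 were lowest in replicate 2 and 4 in replicate 3. In the meninges all 7 were highest in replicate 1 and lowest in replicate 2. In the parenchyma all 7 were highest in replicate 2 and lowest in replicate 1. In wild-type blood all 7 were lowest in replicate 2, and 6 were highest in replicate 3, the exception being Pcna, which was highest in replicate 1. After subtraction of the group means, the log2 level of each gene correlated with the mean of the other 6 over the 12 libraries at r = 0.973 or more for Top2a, Cdk1, Ccna2, Cdc20 and Plk1, at r = 0.903 for Mki67 and at r = 0.798 for Pcna. The points of these correlations share their libraries, with depth and composition, and no p is given.

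**Figure D3:**
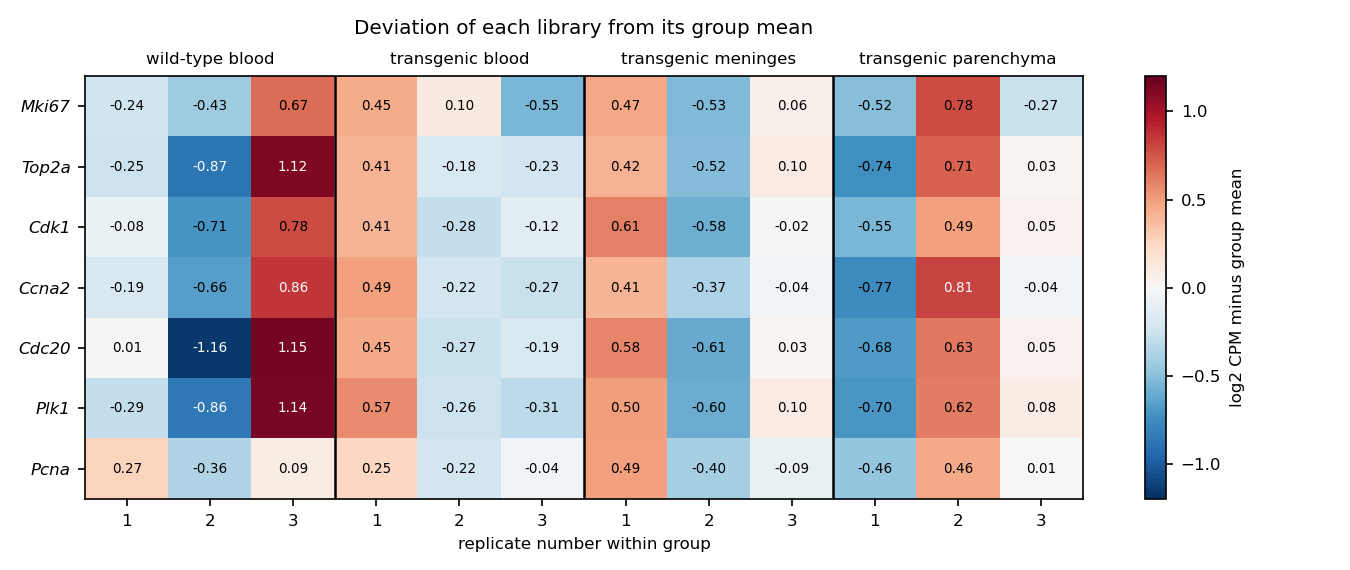
Log2 CPM of each gene (rows) in each library (columns, by group and replicate number) minus the mean of its group; red is above and blue below the group mean, and the number in a cell is the deviation. In 8 of the 12 columns all 7 genes have the same sign, as in wild-type blood replicate 3 (0.09 for Pcna to 1.15 for Cdc20), and 4 columns are mixed, as in wild-type blood replicate 1 (-0.29 for Plk1 to 0.27 for Pcna).

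This spread between libraries of a group was wide for the transcriptome. Over the 9148 genes with a mean of at least 5 CPM, the SD of log2(CPM + 0.5) within a group had a median of 0.176 in wild-type blood, 0.170 in transgenic blood, 0.144 in the meninges and 0.190 in the parenchyma. The median over the 7 genes was 0.765, 0.393, 0.499 and 0.653 in the same groups. The SD exceeded the 90th percentile of those 9148 genes for 6 of the 7 genes in wild-type blood, 4 in transgenic blood, 7 in the meninges and 6 in the parenchyma. Cdc20 varied most in wild-type blood, with libraries 4.94-fold apart, and Pcna varied least in both blood groups and in the parenchyma.

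The balance between the S-phase gene Pcna and other genes of the 7 was followed by ratios of counts in the same library, which need no scaling. Pcna over Top2a was 3.06, 3.02 and 1.04 in wild-type replicates 1, 2 and 3, and 0.651, 0.710 and 0.836 in transgenic blood. It was 1.07, 1.11 and 0.896 in the meninges and 1.68, 1.17 and 1.36 in the parenchyma. Within the transgenic cells the ratio thus had its lowest values in blood and its highest in the parenchyma with no overlap between the 3 tissues, while wild-type replicate 3 had a ratio inside the meningeal range, far from the other wild-type libraries. The gap between blood and meninges depended on the gene divided by: Pcna over Mki67 was 0.493 to 0.881 in transgenic blood and 0.695 to 0.842 in the meninges, which overlap, and 0.977 to 1.49 in the parenchyma, above both. The absolute ratio also reflects the lengths of both transcripts, and only its differences between libraries are read. These ratios were chosen after the values were seen and were not tested; with 3 libraries against 3, the smallest two-sided p an exact permutation test can give is 0.1.

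Ratios of the mitotic genes to the general marker Mki67 gave no common pattern over the transgenic tissues. Cdc20 over Mki67 was 0.120, 0.105 and 0.108 in the meninges, against 0.170, 0.131 and 0.218 in transgenic blood and 0.151, 0.153 and 0.212 in the parenchyma. For Cdc20 the 3 meningeal libraries were below the 6 other transgenic libraries. Plk1 over Mki67 ran from 0.122 to 0.131 in the meninges, inside the range of 0.116 to 0.176 in transgenic blood and below that of 0.144 to 0.209 in the parenchyma. Cdk1 over Mki67 ran from 0.155 to 0.181 in the meninges and overlapped both transgenic blood, at 0.121 to 0.213, and the parenchyma, at 0.154 to 0.236. The separation of the meninges from both other tissues was thus seen for Cdc20 and not for Plk1 or Cdk1. In wild-type blood Cdc20 over Mki67 was 0.105, 0.0533 and 0.123, which spans the meningeal values.

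**Figure D4:**
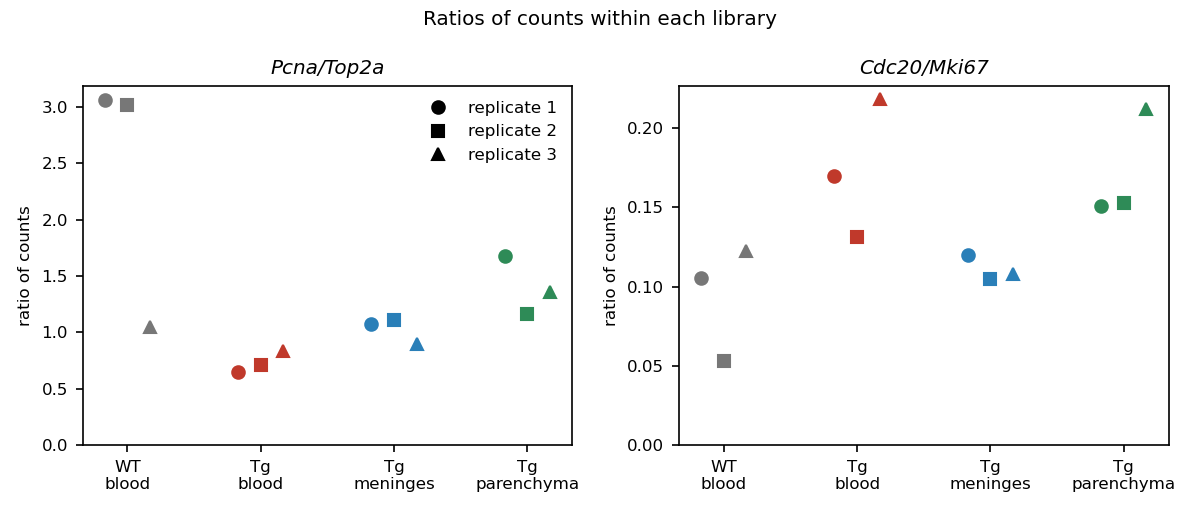
Ratio of Pcna to Top2a counts (left) and of Cdc20 to Mki67 counts (right) in each library, with vertical axes starting at 0 and marker shapes for the replicate number. Left, transgenic blood lies at 0.651 to 0.836 and the parenchyma at 1.17 to 1.68; right, the meninges lie at 0.105 to 0.120.

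Other genes with the same profile were numerous. Of 9668 genes outside the 7 with a mean of at least 5 CPM in 1 or more groups, 284 had r of at least 0.9 over the 12 libraries between their log2(CPM + 0.5) and the mean of the 7 genes. The most alike was ENSRNOG00000038035 (r = 0.998, and 0.991 after subtraction of the group means), with means of 18.4 CPM in wild-type blood, 107 in transgenic blood, 60.5 in the meninges and 35.3 in the parenchyma. ENSRNOG00000020281 came next (r = 0.997, and 0.994), with 36.2, 166, 97.3 and 57.3 CPM in the same groups. The files and tables at hand do not pair these identifiers with names. For the same reason other cell cycle genes, the T cell markers that would check the sorted cells, and the markers of other cell types are not analysed here.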

How the data were processed

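The 7 identifiers and their symbols, and all choices of lists and tests, were set with earlier results of these data known. The authors deposited 1 file of raw read counts per library, with an Ensembl gene in every row. Per the submitters' processing notes, featureCounts 1.5.0-p1, STAR 2.5 and build rn6 were used, among other tools; no source used here states strand or annotation, so reads of overlapping or antisense genes could not be told apart. Groups came from the genotype and tissue labels and replicate numbers from the titles.

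CPM in the text is the count divided by the file total, scaled to 1000000. Tests across all genes used edgeR 4.0.16 in R 4.3.3: filterByExpr with a minimum count of 10, TMM scaling, the two-sided quasi-likelihood F test, and Benjamini-Hochberg adjustment over all genes tested with a threshold of 0.05. The fit for tissues held the 9 transgenic libraries (residual degrees of freedom 6) and that for genotype the 6 blood libraries (4). The SE is the log2 fold change divided by the square root of F. Alternatives used DESeq2 1.42.0, limma 3.58.1, other scalings, filters and sample sets, a replicate block, and omission of each library. The procedure was tested on simulated counts drawn independently for each gene, which do not copy the shared movement of the 7 genes within groups. Replicate pairs differed by far more than sampling noise (chi-square per degree of freedom of at least 13.9). P-values rest on the spread between libraries and on counting noise, and the fit draws each gene's spread toward that of the other genes tested. The rule for named genes was the 7 genes, list genes past the threshold, and the genes most alike; of the 47357 genes of the reference table, 0 carried an Ensembl rat identifier, so 181 list symbols in 5 pathway and 8 marker lists could not be looked up, and 2 of the most alike genes are given by identifier.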

Additional observations from a re-analysis of the deposited data

How the results depend on the processing

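No log2 fold change of the 7 genes changed sign in any comparison under any alternative tried, and every call held under all of them (14 alternatives for genotype, 15 for each contrast of tissues). The number of genes called of the 7 was 7 for genotype and 6 or 7 for parenchyma against blood throughout. For meninges against blood, 0 as reported, it was 1 with DESeq2 and 1 in a fit of only the groups compared (Cdc20 in both). For parenchyma against meninges, 0 as reported, it was 1 with DESeq2 (Cdk1) and between 0 and 3 when a library was left out. The 3 were called without parenchyma replicate 2, the highest of its group for all 7 genes, which widens the difference by construction. Why DESeq2 called Cdk1 was not tested. Group means in CPM moved by less than 1 SD with TMM-scaled library sizes in all 28 cases. The TMM factors ran only from 0.9619 to 1.055, so this check could hardly fail.

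Same-numbered libraries were not shown to be paired: the correlation of their deviations from the group means lay between 0.0561 and 0.284 for meninges and blood, where all 6 libraries correlated best with their own number, between -0.147 and 0.0195 for parenchyma and blood, between -0.327 and 0.0215 for parenchyma and meninges, and between -0.0979 and 0.288 for the genotypes. With a replicate block, 0, 6, 0 and 7 of the 7 genes were called in meninges against blood, parenchyma against blood, parenchyma against meninges and genotype. The block gave 520 genes higher and 154 lower among all genes in the first of these, against 562 and 207 without it.

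Genes lower in the meninges than in blood, 207 as reported, numbered 465 with DESeq2, 467 in a fit of only the groups compared, and between 59 and 130 with a library left out. Genes lower in the parenchyma than in the meninges, 883 as reported, numbered 1159 with DESeq2 and between 405 and 904 with a library left out. Genes higher in transgenic blood, 1518 as reported, numbered between 953 and 1423 with a library left out. The planned recount of pathway lists was not run, since list symbols could not be matched to identifiers.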

Other observations

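Top2a over Mki67, a ratio of counts chosen after the values were seen, was highest in the library numbered 3 of each of the 4 groups. No other ratio to Mki67 did so. In the meninges the ratios of Ccna2 and Pcna were highest in replicate 2, and those of Cdk1, Cdc20 and Plk1 in replicate 1. In transgenic blood and the parenchyma every ratio to Mki67 was highest in replicate 3. Top2a over Mki67 was 0.440, 0.328 and 0.605 in wild-type replicates 1, 2 and 3, 0.825, 0.694 and 1.05 in transgenic blood, 0.729, 0.758 and 0.775 in the meninges and 0.757, 0.838 and 1.09 in the parenchyma. The Mki67 level of replicate 3 had no common direction: its deviation from the group mean on the log2 scale was -0.55 in transgenic blood and -0.27 in the parenchyma, but 0.67 in wild-type blood and 0.06 in the meninges. In the parenchyma, replicate 1 had a lower Mki67 level still, at -0.52, together with the lowest ratio of Top2a to Mki67. What the number stands for is stated in no label, and the difference was not tested.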
